A study of Mus musculus with 18 samples.

Results

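Oligodendrocyte lineage and myelin genes were followed through the forebrain, midbrain and hindbrain of wild-type and Fmr1CRE mice. The set holds 33 genes named by symbol, which were matched to the gene identifiers of the deposited count table through its mouse annotation, and all 33 were found among 53468 genes. They fall into precursor genes (2), newly formed oligodendrocyte genes (3), lineage transcription factors (6) and mature-stage genes (22), the last divided into myelin and paranodal proteins (10), myelin lipid enzymes (3) and other mature oligodendrocyte genes (9).

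RNA was taken at postnatal day 25 from 3 wild-type and 3 Fmr1CRE mice of a single litter, and each mouse gave 1 library from each of the 3 regions, so that 18 libraries made 6 groups of 3. Fmr1CRE mice carry, by CRISPR/Cas9 knock-in on a C57BL/6 background, a single changed base in a conserved cis-regulatory element (CRE) assigned to *Fmr1*, the gene of fragile X syndrome, and no Cre recombinase is involved. Several lines with the change were established in the study, and the line and sex of these mice are not given in the labels. The libraries were made from poly(A) RNA and read from a single end over 50 bases. Since all mice are littermates and each of them appears in every region, p-values measure the spread between these libraries.

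Oligodendrocytes arise from proliferating precursor cells that carry the PDGF receptor alpha and the NG2 proteoglycan. These cells pass through a short premyelinating state and then wrap axons in a lipid-rich membrane held together by a small set of very abundant proteins. SOX10, OLIG2 and the Nkx factors act along the lineage, and MYRF turns on many myelin genes in cells that leave the cell cycle. Myelination in rodents starts caudally and reaches the forebrain later, and hindbrain fibre tracts are heavily myelinated in the young animal.

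Promoters are shown for the 4 genes whose start-site window held the core letters of the MYRF recognition sequence, because these letters tie a factor of the set to other genes of the set. RefSeq promoters of 300 bases (250 before and 50 after the start site, GRCm38.p6) were at hand for 23 of the 33 genes. The letters CTGGCAC, searched on both strands, occurred in 4 of those 23 genes and in 5.73% of all 27025 genes with a promoter (5.01% of 32851 promoters). Capitals mark the core, which reads GTGCCAG where it lies on the opposite strand. The windows are chr3:88027462-88027761 (minus strand) for *Hapln2*, chr7:30914814-30915113 (minus) for *Mag*, chr11:100574689-100574988 (plus) for *Cnp* and chr19:41077064-41077363 (minus) for *Opalin*.
Hapln2: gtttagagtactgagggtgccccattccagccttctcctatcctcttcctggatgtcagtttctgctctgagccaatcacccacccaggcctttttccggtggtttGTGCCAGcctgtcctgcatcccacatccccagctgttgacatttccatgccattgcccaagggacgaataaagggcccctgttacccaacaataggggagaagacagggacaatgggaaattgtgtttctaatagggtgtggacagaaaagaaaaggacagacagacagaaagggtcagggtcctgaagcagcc
Mag: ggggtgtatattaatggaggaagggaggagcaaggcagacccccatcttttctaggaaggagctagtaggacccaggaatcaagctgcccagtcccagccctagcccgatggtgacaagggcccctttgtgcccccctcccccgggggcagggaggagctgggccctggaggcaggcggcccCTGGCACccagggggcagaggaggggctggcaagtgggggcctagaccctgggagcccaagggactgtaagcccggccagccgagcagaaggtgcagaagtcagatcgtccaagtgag
Cnp: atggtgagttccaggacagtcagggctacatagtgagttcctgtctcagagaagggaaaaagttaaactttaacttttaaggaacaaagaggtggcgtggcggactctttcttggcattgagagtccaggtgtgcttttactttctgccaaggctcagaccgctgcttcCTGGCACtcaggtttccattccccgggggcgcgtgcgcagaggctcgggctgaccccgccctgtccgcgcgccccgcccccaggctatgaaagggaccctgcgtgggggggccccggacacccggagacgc
Opalin: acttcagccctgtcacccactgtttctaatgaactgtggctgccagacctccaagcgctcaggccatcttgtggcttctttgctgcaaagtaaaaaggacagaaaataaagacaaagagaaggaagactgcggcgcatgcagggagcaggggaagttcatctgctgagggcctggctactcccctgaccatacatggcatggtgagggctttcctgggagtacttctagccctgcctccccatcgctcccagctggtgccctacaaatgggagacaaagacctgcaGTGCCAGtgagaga
The core began 144 bases before the start site in *Hapln2*, 81 before it in *Cnp* and 68 before it in *Mag*, whereas in *Opalin* it lay 36 bases after it. For *Mag* the distance holds for the window shown only. Of its further windows chr7:30914873-30915172 also held the core and chr7:30914272-30914571 did not. Letter strings of SOX factors, ACAAAG and AACAAT, were found in 6 and 5 of the 23 genes (21.0% and 12.2% of all genes with a promoter). The E-box strings CAGCTG and CATATG were found in 3 and 2 genes (18.3% and 4.48% of all genes with a promoter). A match describes letters in a window and is no evidence of binding.

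Library totals ran from 22455512 to 28061185 counts, and levels below are in CPM, the deposited counts brought to a common library size by the TMM method over the 18 libraries. *Fmr1* itself lay between 51.1 and 83.4 CPM in wild-type libraries and between 63.5 and 78.8 CPM in Fmr1CRE libraries, which does not test the labels since the change is not in the gene. Region marker genes followed the labels: the summed level of 10 forebrain genes was 542 to 1131 CPM in forebrain and 17.2 to 34.3 CPM in hindbrain, and that of 11 hindbrain genes was 12.3 to 18.4 and 439 to 874 CPM. The midbrain libraries also held the forebrain genes at 271 to 478 CPM and the hindbrain genes at 129 to 306 CPM. One irregularity concerned the forebrain libraries of replicate 3. Between wild-type mouse 3 and Fmr1CRE mouse 3, 49 genes differed by at least 2 on the log2 scale both in midbrain and, with the same sign, in hindbrain, and 17 of these differed by as much the opposite way in forebrain, against 2 to 10 genes for the other 14 pairs of mice. Whether these 2 libraries were exchanged was not tested, and their labels are used as given. Results that rest on these libraries are therefore also given without them.

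The 33 genes took a growing share of all counts from front to back of the brain: 1.12% to 1.41% in the forebrain libraries, 1.55% to 1.81% in midbrain and 2.87% to 3.77% in hindbrain. The ranges did not overlap. In these tissue samples, fewer cells of a type and less RNA per cell cannot be told apart. In hindbrain against forebrain, 28 of the 33 genes were higher and 2 were lower by edgeR's quasi-likelihood test with Benjamini-Hochberg adjustment (adjusted p under 0.05). Over all 20363 genes tested the percentages were 25.3% higher and 26.4% lower, 51.7% in all. At least 2-fold higher were 19 of the 33 genes, against 8.06% of all genes. The median log2 fold change of the 33 was 1.09, beside 0.0085 for all genes tested. In 26 genes the 6 hindbrain values all exceeded the 6 forebrain values (13% of all genes), and for 27 genes the hindbrain of each of the 6 mice exceeded its own forebrain.

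**Figure D1:**
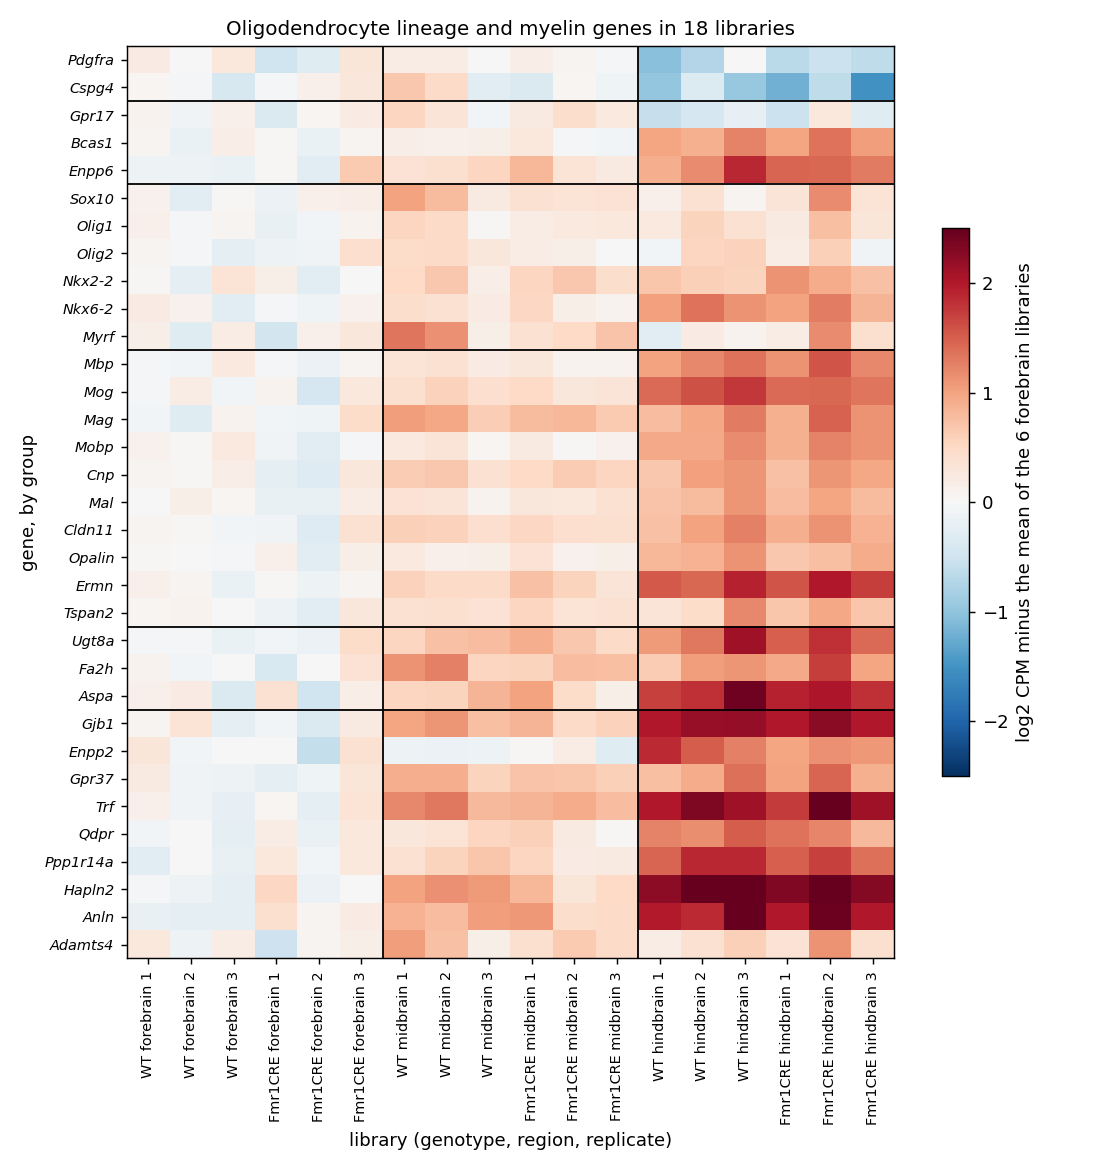
Heat map of the 33 genes (rows, by group, separated by lines) in 18 libraries (columns, by region, genotype and replicate). Colour gives log2 CPM minus the mean of the 6 forebrain libraries for that gene; nearly all mature-stage rows are red in hindbrain, pale in midbrain, and *Pdgfra* and *Cspg4* are blue in hindbrain.

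The precursor genes went the other way. *Pdgfra* encodes the receptor through which PDGF keeps precursor cells dividing. *Pdgfra* in forebrain measured 73.8, 64.3 and 76.2 CPM in wild-type mice (replicates 1, 2 and 3, and so in this order throughout) and 45.2, 51.8 and 78.1 CPM in Fmr1CRE mice. Midbrain values of *Pdgfra* were 71.9, 72.7 and 63.6 CPM in wild type and 71.5, 67.1 and 62.6 CPM in Fmr1CRE. Hindbrain values of *Pdgfra* were 30.6, 38.4 and 62.9 CPM in wild type and 40.0, 44.0 and 40.9 CPM in Fmr1CRE. The forebrain and hindbrain ranges overlapped because of wild-type hindbrain 3, which stood above 2 Fmr1CRE forebrains, although the hindbrain value was the lower in each of the 6 mice. *Pdgfra* was 1.51-fold lower in hindbrain than in forebrain (log2 fold change -0.59, SE 0.15, adjusted p 0.004) and lower than in midbrain by a log2 change of -0.67 (SE 0.15, adjusted p 0.00183). *Cspg4* in forebrain measured 19.7, 18.6 and 14.4 CPM in wild-type mice and 18.7, 20.8 and 23.1 CPM in Fmr1CRE mice. Midbrain values of *Cspg4* were 30.3, 26.4 and 15.9 CPM in wild type and 14.9, 19.8 and 17.7 CPM in Fmr1CRE. Hindbrain values of *Cspg4* were 9.68, 15.02 and 9.89 CPM in wild type and 8.21, 12.2 and 6.57 CPM in Fmr1CRE. *Cspg4*, which encodes the NG2 proteoglycan, was thus lowest in hindbrain, where only wild-type replicate 2 passed the lowest forebrain value. Its difference was -0.91 against forebrain (SE 0.18, adjusted p 0.000517) and -1.01 against midbrain (SE 0.18, adjusted p 0.00025). Neither gene passed the test between midbrain and forebrain (log2 0.08 and 0.10, adjusted p 0.77 and 0.737). Pericytes also carry NG2, and 6 pericyte markers summed to 155 to 202 CPM in forebrain and 170 to 225 CPM in hindbrain. Fibroblasts share *Pdgfra*, and their 6 markers summed to 52.5 to 84.3 and 85.1 to 140.5 CPM. *Rgs5* made up most of the pericyte sum (111 to 132 CPM in forebrain and 112 to 170 in hindbrain). Singly, 2 pericyte markers were higher and 1 was lower in hindbrain, *Pdgfrb*, the PDGF receptor beta of pericytes, at 13.1 to 29.9 CPM in forebrain and 8.15 to 12.3 CPM in hindbrain (log2 -1.10, SE 0.18, adjusted p 8.01e-05). Of the fibroblast markers 4 were higher and none was lower. The part of these cells in the precursor values was not tested. In wild-type libraries alone the hindbrain difference of *Cspg4* from forebrain was -0.60 (adjusted p 0.0853), and in Fmr1CRE libraries alone that of *Pdgfra* was -0.45 (adjusted p 0.0783).

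The newly formed genes divided. *Enpp6*, a choline phosphodiesterase marking oligodendrocytes that have just begun to differentiate, rose with the mature genes. *Enpp6* in forebrain measured 28.9, 29.0 and 27.99 CPM in wild-type mice and 32.3, 26.3 and 49.6 CPM in Fmr1CRE mice. Midbrain values of *Enpp6* were 40.7, 41.7 and 46.1 CPM in wild type and 56.4, 40.0 and 37.1 CPM in Fmr1CRE. Hindbrain values of *Enpp6* were 59.3, 71.6 and 117 CPM in wild type and 87.3, 85.6 and 77.9 CPM in Fmr1CRE. All hindbrain values exceeded all others, with wild-type hindbrain 3 highest, and Fmr1CRE forebrain 3 stood above the other 5 forebrains. The difference was 1.37 on the log2 scale against forebrain (2.59-fold, SE 0.17, adjusted p 5.3e-06) and 0.93 against midbrain (SE 0.17, adjusted p 0.000289). *Bcas1* in forebrain measured 231, 197 and 247 CPM in wild-type mice and 226, 198 and 233 CPM in Fmr1CRE mice. Midbrain values of *Bcas1* were 248, 240.4 and 246 CPM in wild type and 267, 213 and 211 CPM in Fmr1CRE. Hindbrain values of *Bcas1* were 440.5, 412 and 519 CPM in wild type and 439.5, 567 and 456 CPM in Fmr1CRE. *Bcas1*, which labels oligodendrocytes in early and active myelination, had similar forebrain and midbrain values and a step to hindbrain without overlap. It was 2.13-fold higher in hindbrain than in forebrain (log2 1.09, SE 0.09, adjusted p 6.93e-08), and its midbrain level differed from forebrain by a log2 change of 0.10 (SE 0.09, adjusted p 0.505). *Gpr17*, a receptor confined to committed precursors and premyelinating cells, was lower in hindbrain than in midbrain (-0.57, SE 0.14, adjusted p 0.00313), and its difference from forebrain of -0.29 (SE 0.14) did not pass the test (adjusted p 0.0992). Without Fmr1CRE forebrain 1 or without Fmr1CRE hindbrain 2 the latter became -0.36 (adjusted p 0.0397) and -0.42 (adjusted p 0.0103).

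Among the lineage transcription factors, 4 of 6 were higher in hindbrain than in forebrain, with a median log2 fold change of 0.42. *Nkx6-2*, a homeodomain factor of mature oligodendrocytes, moved most. *Nkx6-2* in forebrain measured 23.9, 22.4 and 17.3 CPM in wild-type mice and 20.3, 19.4 and 22.3 CPM in Fmr1CRE mice. Midbrain values of *Nkx6-2* were 28.3, 27.0 and 24.1 CPM in wild type and 29.9, 23.0 and 22.2 CPM in Fmr1CRE. Hindbrain values of *Nkx6-2* were 42.2, 53.2 and 45.6 CPM in wild type and 42.1, 50.7 and 37.6 CPM in Fmr1CRE. The hindbrain libraries stood apart from all others and the forebrain and midbrain ranges overlapped. *Nkx6-2* was 2.16-fold higher in hindbrain than in forebrain (log2 1.11, SE 0.11, adjusted p 3.61e-07), and its midbrain difference from forebrain was 0.30 (SE 0.11, adjusted p 0.064). *Nkx2-2* in forebrain measured 7.18, 5.97 and 9.04 CPM in wild-type mice and 7.82, 5.89 and 7.03 CPM in Fmr1CRE mice. Midbrain values of *Nkx2-2* were 10.02, 11.4 and 7.98 CPM in wild type and 10.3, 11.3 and 9.67 CPM in Fmr1CRE. Hindbrain values of *Nkx2-2* were 11.54, 10.8 and 10.5 CPM in wild type and 15.5, 13.5 and 11.9 CPM in Fmr1CRE. *Nkx2-2*, a homeodomain factor of the precursor and of the cell entering differentiation, had hindbrain values that exceeded every forebrain value. The log2 differences were 0.77 for hindbrain (SE 0.12, adjusted p 6.54e-05) and 0.50 for midbrain (SE 0.12, adjusted p 0.00931) against forebrain.

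The broad lineage factors changed less. *Olig1*, a basic helix-loop-helix factor, was 1.34-fold higher in hindbrain than in forebrain (log2 0.42, SE 0.10, adjusted p 0.00321), and *Sox10*, the HMG-box factor that acts with MYRF on myelin genes, 1.35-fold (0.43, SE 0.15, adjusted p 0.0288). *Olig2*, which specifies the lineage, differed by 0.30 (SE 0.13) and missed the threshold at adjusted p 0.0712. The call of *Sox10* was lost without wild-type forebrain 2 (adjusted p 0.0754), Fmr1CRE forebrain 1 (0.0674), wild-type hindbrain 2 (0.0744) or Fmr1CRE hindbrain 2 (0.103), and without both replicate 3 forebrains (adjusted p 0.0503). *Olig2* passed without Fmr1CRE forebrain 3, wild-type hindbrain 1 or Fmr1CRE hindbrain 3, at log2 changes of 0.38 to 0.40. It also passed by DESeq2 (adjusted p 0.0486), with total counts as the scaling (0.00804), with a minimum of 10 counts in every library (0.0297), with GC offsets (0.0134) and without both replicate 3 forebrains (0.0461). *Myrf* in forebrain measured 68.5, 50.0 and 70.2 CPM in wild-type mice and 44.6, 67.3 and 75.4 CPM in Fmr1CRE mice. Midbrain values of *Myrf* were 157, 135 and 68.0 CPM in wild type and 80.2, 86.9 and 101 CPM in Fmr1CRE. Hindbrain values of *Myrf* were 50.8, 70.5 and 65.1 CPM in wild type and 69.7, 139.9 and 81.0 CPM in Fmr1CRE. *Myrf*, whose product is cleaved from a membrane to act on myelin genes, was highest in wild-type midbrains 1 and 2 and in Fmr1CRE hindbrain 2, and its 3 regions overlapped. It was higher in midbrain than in forebrain (0.72, SE 0.21, adjusted p 0.0234), whereas hindbrain differed from forebrain by 0.31 (adjusted p 0.234) and from midbrain by -0.42 (adjusted p 0.11). The midbrain call of *Myrf* was lost without wild-type forebrain 2 (adjusted p 0.0612), Fmr1CRE forebrain 1 (0.0587), wild-type midbrain 1 (0.0693) or 2 (0.0524) or Fmr1CRE midbrain 3 (0.0506), and *Myrf* was called lower in hindbrain than in midbrain without wild-type midbrain 3 (-0.56, adjusted p 0.0172) or Fmr1CRE hindbrain 2 (-0.60, adjusted p 0.0197).

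All 10 myelin and paranodal proteins were higher in hindbrain than in forebrain, by a median log2 fold change of 1.02, and the 6 hindbrain values exceeded the 6 forebrain values in each. The 10 genes ranged from 0.75 for *Tspan2*, a tetraspanin of the myelin membrane, to 1.71 for *Ermn*, an actin-binding protein of the oligodendrocyte cytoskeleton. *Ermn* in forebrain measured 122, 117 and 99.7 CPM in wild-type mice and 114, 103 and 117 CPM in Fmr1CRE mice. Midbrain values of *Ermn* were 166, 155 and 156 CPM in wild type and 185, 163 and 140.4 CPM in Fmr1CRE. Hindbrain values of *Ermn* were 323, 301 and 423 CPM in wild type and 331, 449 and 371 CPM in Fmr1CRE. The 3 regions of *Ermn* did not overlap. Its level in hindbrain was 3.27-fold that in forebrain (SE of the log2 change 0.10, adjusted p 1.34e-09). *Mog* in forebrain measured 179, 210.2 and 175 CPM in wild-type mice and 195, 138 and 222 CPM in Fmr1CRE mice. Midbrain values of *Mog* were 244, 276 and 247 CPM in wild type and 260.4, 225 and 229.7 CPM in Fmr1CRE. Hindbrain values of *Mog* were 489, 557 and 629 CPM in wild type and 490.4, 496 and 465 CPM in Fmr1CRE. *Mog*, an immunoglobulin-family protein of the outermost myelin surface, likewise rose in steps, with Fmr1CRE forebrain 2 lowest and wild-type hindbrain 3 highest of all libraries. Its log2 difference was 1.48 for hindbrain against forebrain (SE 0.10, adjusted p 8.03e-09) and 0.40 for midbrain against forebrain (SE 0.10, adjusted p 0.0112).

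The most abundant members of the group followed. *Mbp*, which encodes the basic protein that compacts the cytoplasmic faces of myelin, measured 6193 ± 637 CPM in forebrain, 7239 ± 650.2 in midbrain and 14696 ± 2097 in hindbrain (mean ± SD, n = 6). *Mobp*, a second basic protein of compact myelin, measured 2507 ± 302, 2806 ± 235 and 5199 ± 513 CPM (SD, n = 6). Both were higher in hindbrain than in forebrain (log2 1.25 and 1.06) while their midbrain levels were within 0.22 and 0.17 of forebrain (adjusted p 0.106 and 0.155). With total counts as the scaling both were called higher in midbrain (0.28 and 0.23, adjusted p 0.0274 and 0.0406). *Mag*, an adhesion protein of the axon-facing membrane, and *Cnp*, an enzyme of the non-compacted channels, were higher in midbrain than in forebrain by 0.80 and 0.55, and hindbrain differed from midbrain by 0.29 (adjusted p 0.0816) and 0.38 (adjusted p 0.00867). The sizes of these steps were not compared by a test. *Cldn11*, the claudin of the radial tight junctions, moved by 0.48 and 0.50 in the same 2 steps. *Mal*, a proteolipid of lipid rafts, moved by 0.28 and 0.58. *Opalin*, a transmembrane protein of the paranodal loops, differed by 0.86 between hindbrain and forebrain and by 0.19 between midbrain and forebrain (adjusted p 0.138).

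The 3 myelin lipid enzymes rose together in both posterior regions. *Aspa*, the aspartoacylase that frees acetate from N-acetylaspartate, showed the largest difference among them. *Aspa* in forebrain measured 23.8, 25.3 and 17.1 CPM in wild-type mice and 28.7, 15.4 and 24.5 CPM in Fmr1CRE mice. Midbrain values of *Aspa* were 31.7, 32.4 and 39.6 CPM in wild type and 44.4, 30.2 and 24.2 CPM in Fmr1CRE. Hindbrain values of *Aspa* were 71.7, 78.5 and 119 CPM in wild type and 83.2, 89.0 and 77.6 CPM in Fmr1CRE. The hindbrain libraries were separate from the rest, and Fmr1CRE midbrain 3 lay within the forebrain range. *Aspa* was 3.84-fold higher in hindbrain than in forebrain (log2 1.94, SE 0.18, adjusted p 2.29e-07). *Ugt8a* in forebrain measured 169, 172 and 156 CPM in wild-type mice and 167, 159 and 239 CPM in Fmr1CRE mice. Midbrain values of *Ugt8a* were 253, 292 and 299.7 CPM in wild type and 329, 278 and 244 CPM in Fmr1CRE. Hindbrain values of *Ugt8a* were 364, 437 and 763 CPM in wild type and 493, 621 and 469.5 CPM in Fmr1CRE. For *Ugt8a*, which makes galactosylceramide, the 3 regions did not overlap, and wild-type hindbrain 3 stood highest. The log2 differences from forebrain were 1.57 in hindbrain (SE 0.16, adjusted p 6.7e-07) and 0.68 in midbrain (SE 0.16, adjusted p 0.00713). *Fa2h*, the hydroxylase of myelin sphingolipids, was 2.13-fold higher in hindbrain and 1.79-fold higher in midbrain than in forebrain, and the 2 posterior regions differed by 0.26 (SE 0.16, adjusted p 0.199).

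The other mature oligodendrocyte genes held the largest region differences of the set, with a median of 1.65 for hindbrain against forebrain, and all 9 passed the test. *Hapln2*, a link protein of the matrix at nodes of Ranvier, led. *Hapln2* in forebrain measured 17.6, 16.7 and 15.5 CPM in wild-type mice and 26.2, 16.3 and 18.4 CPM in Fmr1CRE mice. Midbrain values of *Hapln2* were 36.7, 39.9 and 38.2 CPM in wild type and 32.4, 22.5 and 25.7 CPM in Fmr1CRE. Hindbrain values of *Hapln2* were 85.6, 121 and 107 CPM in wild type and 90.1, 126 and 89.96 CPM in Fmr1CRE. The hindbrain values stood above all others, and in midbrain the wild-type libraries stood above the Fmr1CRE libraries. *Hapln2* was 5.62-fold higher in hindbrain than in forebrain (log2 2.49, SE 0.14, adjusted p 4.83e-10) and 1.75-fold higher in midbrain than in forebrain (SE of the log2 change 0.13, adjusted p 0.000565). *Anln* in forebrain measured 25.1, 24.2 and 24.4 CPM in wild-type mice and 37.8, 29.9 and 33.1 CPM in Fmr1CRE mice. Midbrain values of *Anln* were 52.6, 49.3 and 59.5 CPM in wild type and 60.9, 38.7 and 40.1 CPM in Fmr1CRE. Hindbrain values of *Anln* were 113, 105 and 165 CPM in wild type and 115, 158 and 116 CPM in Fmr1CRE. *Anln*, an actin and septin binding scaffold that keeps myelin from outfolding, showed no overlap between regions. Its fold over forebrain was 4.47 in hindbrain (adjusted p 3.43e-09) and 1.74 in midbrain (adjusted p 0.000767).

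*Trf*, the transferrin gene that supplies iron to oligodendrocytes, was 4.42-fold higher and *Gjb1*, encoding the gap junction protein connexin 32, 4.28-fold higher in hindbrain than in forebrain (adjusted p 1.96e-09 and 6.92e-10). Both were also higher in midbrain, by 1.97-fold and 1.72-fold. *Ppp1r14a*, an inhibitor of myosin phosphatase, was 3.13-fold higher in hindbrain, *Qdpr*, a reductase that regenerates tetrahydrobiopterin, 2.33-fold, and *Gpr37*, a receptor of maturing oligodendrocytes, 2.11-fold. *Adamts4*, a metalloproteinase of myelinating cells, changed least (1.43-fold, log2 0.51, SE 0.17, adjusted p 0.0185). Its call was lost without wild-type forebrain 2 (0.46, adjusted p 0.0503) or without Fmr1CRE hindbrain 2 (0.36, adjusted p 0.0645).

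*Enpp2*, which encodes autotaxin, had another order, hindbrain above forebrain above midbrain. *Enpp2* in forebrain measured 475, 365 and 379 CPM in wild-type mice and 385, 255 and 499 CPM in Fmr1CRE mice. Midbrain values of *Enpp2* were 354, 348 and 354 CPM in wild type and 393, 437 and 313 CPM in Fmr1CRE. Hindbrain values of *Enpp2* were 1398, 1098 and 926 CPM in wild type and 762, 852 and 818 CPM in Fmr1CRE. Wild-type hindbrains 1 and 2 were the highest, and forebrain and midbrain overlapped. The difference of hindbrain from forebrain was 1.29 (SE 0.14, adjusted p 1.61e-06) and that of midbrain from forebrain -0.10 (SE 0.14, adjusted p 0.669), which turned to 0.026 without Fmr1CRE forebrain 3. The choroid plexus makes *Enpp2* too. The 10 choroid plexus markers summed to 394 to 904 CPM in forebrain, 189 to 511 in midbrain and 944 to 3311 in hindbrain, 7 of 10 were higher in hindbrain than in forebrain, and *Ttr* alone measured 3150 and 2544 CPM in the same 2 wild-type hindbrains against 862 to 1340 CPM in the other 4. Their part in the *Enpp2* values was not tested. Schwann cells, which share myelin genes, were checked by markers of their own. *Pmp2* was at most 0.108 CPM and at 0 in several libraries, *Prx* at most 1.16 CPM and *Cldn19* at most 1.92 CPM, and of the 6 Schwann markers *Drp2*, at 27.0 to 94.1 CPM, carried a sum that was lower in hindbrain (29.1 to 41.8 CPM) than in forebrain (76.6 to 97.0 CPM).

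**Figure D2:**
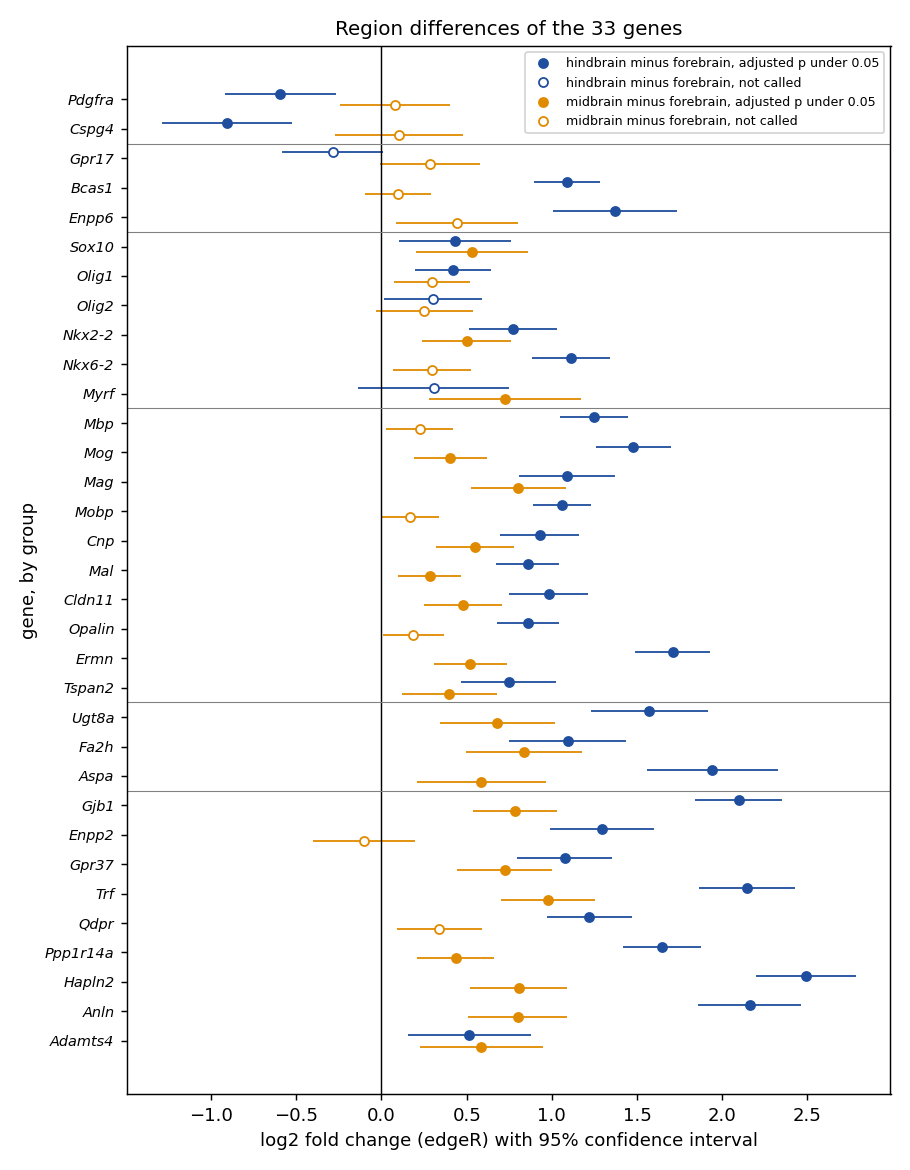
Log2 fold change with 95% confidence interval (edgeR) of each of the 33 genes (rows, by group) for hindbrain against forebrain in blue and midbrain against forebrain in orange, with filled points for adjusted p under 0.05 and open points otherwise. Hindbrain against forebrain reaches from -0.91 for *Cspg4* to 2.49 for *Hapln2*, and midbrain against forebrain stays between -0.10 and 0.98.

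Midbrain lay between the other regions for most genes. Against forebrain, 20 of 33 genes were higher and none was lower in midbrain (9.96% higher and 9.38% lower among all genes tested, 19.3% in all), none reached 2-fold (2.27% of all genes), and the median log2 fold change was 0.44 beside -0.023 for all genes. In 13 genes the midbrain values all exceeded the forebrain values (5.35% of all genes). The 20 comprised 3 transcription factors (*Sox10*, *Nkx2-2* and *Myrf*), 7 of 10 myelin and paranodal proteins, all 3 lipid enzymes and 7 of 9 other mature genes. None of the precursor or newly formed genes was among them. In 14 of the 20 the call held in each of the 18 fits without 1 library, and the other 6 were *Sox10*, *Myrf*, *Adamts4*, *Aspa*, *Mal* and *Tspan2*. The call of *Tspan2* (adjusted p 0.0439) was lost without each forebrain or midbrain library but Fmr1CRE forebrain 3 and without Fmr1CRE hindbrain 1 or 3, at adjusted p up to 0.107. That of *Mal* was lost without wild-type forebrain 1 or 3, Fmr1CRE forebrain 1 or 2, wild-type midbrain 1 or 2 or Fmr1CRE midbrain 3, at adjusted p up to 0.0783. *Aspa* lost it without wild-type forebrain 3, Fmr1CRE forebrain 2, wild-type midbrain 2 or 3 or Fmr1CRE midbrain 1 (up to 0.0973), and *Sox10* and *Adamts4* without wild-type forebrain 2, Fmr1CRE forebrain 1 or wild-type midbrain 1 (up to 0.0722), *Sox10* also without wild-type midbrain 2 (0.0542) and *Adamts4* without Fmr1CRE midbrain 2 (0.0507). Of the genes not called, *Qdpr* (adjusted p 0.0519) passed without Fmr1CRE forebrain 3, Fmr1CRE midbrain 3, wild-type hindbrain 3 or Fmr1CRE hindbrain 1 or 3, *Olig1* (0.0588) without Fmr1CRE forebrain 3, wild-type midbrain 3 or Fmr1CRE hindbrain 2, and *Enpp6* (0.078) without Fmr1CRE forebrain 3 or wild-type hindbrain 3. Other settings also called genes that the test did not: DESeq2 called *Qdpr* (adjusted p 0.0314), *Olig1* (0.0325), *Nkx6-2* (0.0454) and the newly formed gene *Enpp6* (0.0476), and the scaling by total counts called the same 4 (adjusted p 0.0139 to 0.0366) with *Mbp* and *Mobp*. In libraries of these 2 regions alone *Qdpr*, *Olig1* and *Enpp6* passed (0.0285 to 0.049). With a minimum of 10 counts in every library *Qdpr* and *Olig1* passed, without a filter *Qdpr*, and with GC offsets *Olig1* and *Nkx6-2*. In wild-type libraries alone 13 genes were higher, and in Fmr1CRE libraries alone 0 were, each fit with 3 libraries against 3. These counts were not set beside the share of all genes called in the same 2 fits. The 20 genes of the main fit kept their direction in Fmr1CRE libraries alone. Their log2 changes there ran from 0.16 for *Ppp1r14a* (edgeR adjusted p 0.546) to 0.77 for *Trf* (edgeR adjusted p 0.0627). The interaction of genotype and region called 0 of the 33 genes. With the mouse as a replicate block, *Mal* (adjusted p 0.0552) and *Tspan2* (adjusted p 0.0654) were no longer called.

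Hindbrain exceeded midbrain for 22 genes and was below it for 3, *Pdgfra*, *Cspg4* and *Gpr17* (24% and 25.1% of all genes, 49.1% in all). The groups did not overlap in 19 of the 22 (10.9% of all genes), and 10 reached 2-fold (6.27%). The 8 genes that did not pass comprised *Mag*, *Fa2h*, *Adamts4* and all transcription factors but *Nkx6-2*. *Tspan2* (0.33, adjusted p 0.064) and *Gpr37* (0.35, adjusted p 0.0699) dropped out with the mouse as a replicate block. They were also lost without wild-type midbrain 3, Fmr1CRE midbrain 2 or 3, wild-type hindbrain 3 or Fmr1CRE hindbrain 2 (adjusted p up to 0.119 and 0.114), *Tspan2* further without wild-type midbrain 1 or 2 (0.067 and 0.0634). *Mag* passed without Fmr1CRE hindbrain 1 (0.35, adjusted p 0.0477). *Mag* and *Nkx2-2* were both called with total counts as the scaling (adjusted p 0.015 and 0.0235), with a minimum of 10 counts in every library (0.0306 and 0.0373), in libraries of the 2 regions alone (0.0441 and 0.039) and with GC offsets (0.0209 and 0.017), and *Olig1* with GC offsets (0.0109). By region means, 26 genes followed the order hindbrain, midbrain, forebrain. *Sox10*, *Myrf* and *Adamts4* were highest in midbrain and lowest in forebrain, by differences from hindbrain that did not pass. The order midbrain, forebrain, hindbrain was held by *Pdgfra*, *Cspg4* and *Gpr17*, and for none of these did midbrain against forebrain pass the test.

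The stage groups can be set side by side within each library as the mean log2 CPM of their genes. The mature mean exceeded the precursor mean by 1.97 to 2.35 in forebrain, 2.29 to 2.79 in midbrain and 3.97 to 4.45 in hindbrain, and the newly formed mean exceeded it by 1.33 to 1.62, 1.39 to 1.99 and 2.54 to 3.21. The hindbrain libraries were separate from the others in both measures, while forebrain and midbrain touched. Both measures are differences of log2 CPM that depend on gene length and describe change between groups of libraries only. For newly formed against precursor genes the genotypes overlapped in forebrain and midbrain. In hindbrain this measure was 2.54 to 2.91 in wild type and 3.03 to 3.21 in Fmr1CRE, a difference that was not tested. It rests on 2 precursor genes, and 10.9% of all genes likewise did not overlap between genotypes in hindbrain. The mature mean minus the precursor mean overlapped there, at 3.97 to 4.29 in wild type and 4.27 to 4.45 in Fmr1CRE. Precursor means alone were 4.87 to 5.41 in forebrain, 4.997 to 5.55 in midbrain and 4.04 to 4.65 in hindbrain.

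**Figure D3:**
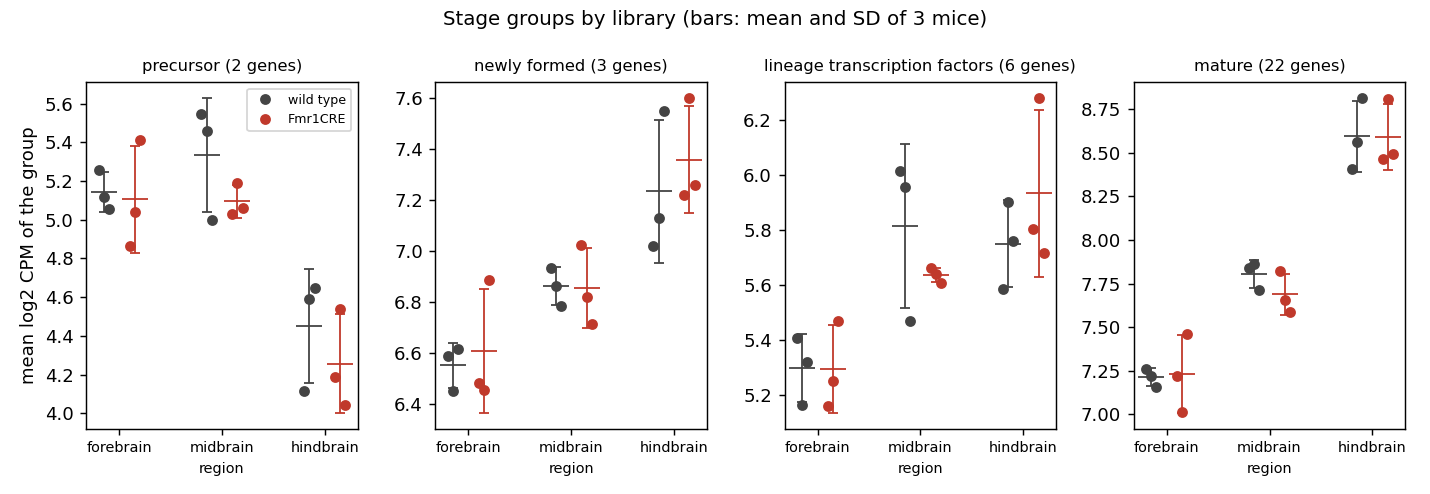
Mean log2 CPM of the genes of each stage group (panels) by region (horizontal axis), with 1 point per library, wild type in grey and Fmr1CRE in red, and bars for the mean and SD of 3 mice. The mature panel rises from 7.01 to 7.46 in forebrain to 8.41 to 8.81 in hindbrain, the precursor panel falls, and the genotypes overlap throughout.

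Levels of different genes were compared per length, as shares of the summed length-corrected counts of the 33 genes in a library. *Mbp* made up 49.2 ± 2.12% in forebrain, 46.6 ± 0.96% in midbrain and 50.5 ± 1.60% in hindbrain (SD, n = 6), and *Mobp* followed with 17.2%, 15.6% and 15.5%. The 6 genes *Mbp*, *Mobp*, *Trf*, *Cnp*, *Mal* and *Cldn11* together held 80.7%, 79.4% and 80.8%. Among these 6 *Trf* moved up in both steps, from 2.77 ± 0.37% and the 6th place in forebrain to 4.40 ± 0.45% and the 4th in midbrain and 5.28 ± 0.63% and the 3rd in hindbrain. Further down the order *Hapln2* went from the 30th to the 21st place and *Anln* from the 31st to the 22nd between forebrain and hindbrain. *Cspg4* was the 33rd and *Nkx2-2* the 32nd in each region.

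Other genes of the lineage, outside the 33, were counted in the same fit. All 26 further mature oligodendrocyte genes were higher in hindbrain than in forebrain (median log2 fold change 1.08), from *Klk6*, a myelin-associated serine protease, at 4.53 (adjusted p 1.32e-09) and *Apod*, a lipid carrier, at 2.15 (adjusted p 3.62e-11) to *Pex5l* at 0.45 (adjusted p 0.00313) and *Sirt2*, a tubulin deacetylase, at 0.27 (adjusted p 0.0272). Over all genes tested 25.3% were higher and 26.4% lower. Further precursor genes went both ways, 3 higher and 3 lower of 7. *C1ql1* (0.95) and *Lhfpl3* (0.51) were higher and *Pcdh15* (-0.79) and *Matn4* (-0.80) lower. A lower level in hindbrain was thus not common to all genes listed as precursor genes, and which cells made their RNA was not tested. Of 6 further newly formed genes 2 were higher and 2 lower: *Tmem163*, a zinc transporter, rose by 0.77, *Bmp4* differed by 0.46 without passing (adjusted p 0.0825), and *Rras2* (-0.44) and *Tcf7l2* (-2.38), a Wnt pathway factor also made by thalamic neurons, were lower. Among 5 further transcription factors 3 were higher, led by *St18* (1.98) and *Myt1* (0.69), and *Zfp536* (0.27) and *Sox8* (0.01) were not called. Of 17 cholesterol synthesis genes, which serve the myelin membrane and every other cell, 16 were higher, *Cyp51* by 1.19 and *Idi1* by 1.02 at the upper end and *Lss* by 0.42 towards the lower. In midbrain against forebrain the same lists had 14 of 26, 1 of 7, 2 of 6, 1 of 5 and 7 of 17 genes higher, and none lower, beside 9.96% higher and 9.38% lower over all genes tested.

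Within a group of 3 libraries the SD of log2 CPM was 0.13 to 0.41 for the 33 genes (median 0.24), beside a median of 0.27 over all genes. *Myrf* (0.41), *Aspa* (0.34) and *Cspg4* (0.34) were the most variable, *Mobp* (0.13) and *Opalin* (0.14) the least. Some libraries stood out by rank, though the part of single libraries in the spread was not tested. Fmr1CRE forebrain 3, whose label is in question, was the highest of its region's 6 libraries for 21 of the 33 genes. Fmr1CRE hindbrain 2 was the highest for 16 and wild-type hindbrain 3 for 13, while wild-type hindbrain 1 was the lowest for 17 and Fmr1CRE forebrain 2 for 14. Such ranks were not counted over all genes. The genes did not all deviate together across the 18 libraries. The deviations of *Myrf* from its group means correlated with those of *Olig1* (Pearson r = 0.95), *Adamts4* (0.94), *Sox10* (0.92), *Fa2h* (0.91) and *Gpr17* (0.91), and hardly with *Mog* (0.0042) or *Aspa* (-0.31). *Mog* went with *Gjb1* (0.83), *Cldn11* (0.82) and *Enpp6* (0.79). These are descriptions over 18 libraries of 6 mice that share library depth and base composition, and *Myrf* and *Mog* were chosen after their values were seen.

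**Figure D4:**
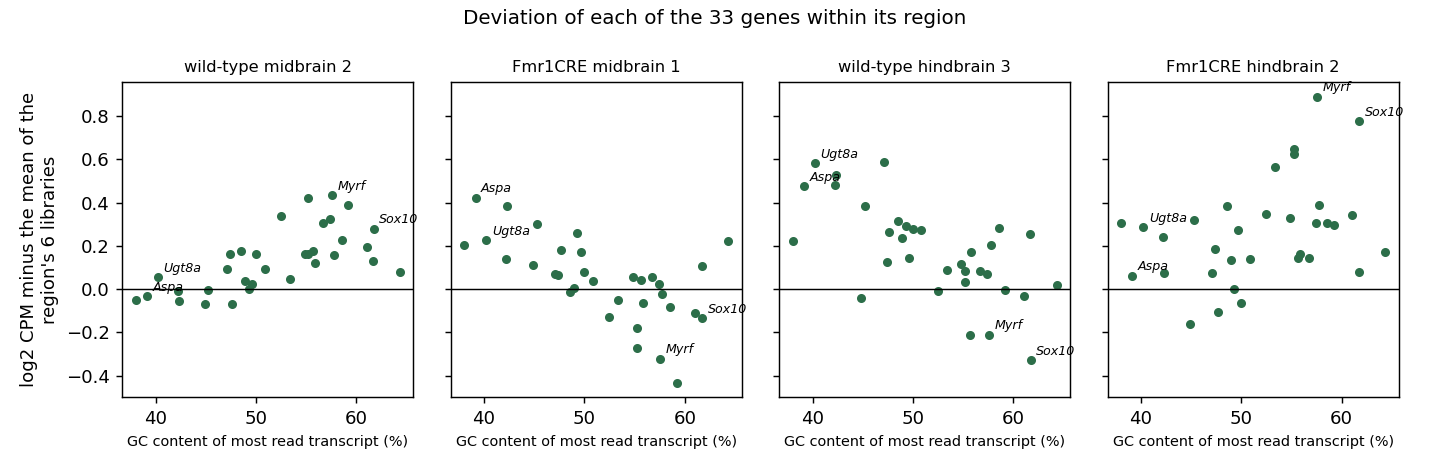
Deviation of each of the 33 genes from the mean log2 CPM of its region's 6 libraries (vertical axis) against the GC content of its most read transcript in percent (horizontal axis) in 4 libraries, chosen after the values were seen. Deviations rise with GC content in wild-type midbrain 2 (Spearman 0.69) and fall in Fmr1CRE midbrain 1 (-0.64) and wild-type hindbrain 3 (-0.63). The correlation is weaker in Fmr1CRE hindbrain 2 (0.38).

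In some libraries the deviations moved with base composition. The most read transcripts of the 33 genes had GC contents of 38.0% to 64.3%, and the Spearman correlation of GC content with the genes' deviations was 0.65 and 0.69 in wild-type midbrains 1 and 2, 0.63 in wild-type hindbrain 2, -0.64 in Fmr1CRE midbrain 1 and -0.63 in wild-type hindbrain 3. In the other 13 libraries it lay between -0.40 and 0.49. Over all genes the same libraries gave 0.30, 0.23, 0.26, -0.26 and -0.29. With offsets for GC content in the fit, added after the data were seen, 29 genes were higher and 2 lower in hindbrain against forebrain, 22 were higher in midbrain against forebrain, and 24 were higher and 3 lower in hindbrain against midbrain.

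No genotype difference among the 33 genes passed the test. By edgeR's quasi-likelihood test, 0 of 33 were called in forebrain (0% of 18467 genes), 0 in midbrain (0.00543% of 18400), 0 in hindbrain (0% of 19112), 0 for the 3 regions of each mouse summed (0.00451% of 22191) and 0 for the interaction of genotype and region (0% of 20363). At an unadjusted p under 0.05 there were 2, 2, 2, 1 and 2 genes (5.43%, 6.17%, 5.13%, 3.7% and 7.54% of all genes), and DESeq2 called 0 of the 33 in each. The medians of the 33 log2 fold changes, Fmr1CRE minus wild type, were 0.015, -0.092, 0.012 and -0.023. The 95% confidence intervals of single genes reached from -0.70 to 0.84 in forebrain, -1.05 to 0.46 in midbrain, -0.998 to 1.22 in hindbrain and -0.57 to 0.43 for the sums.

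**Figure D5:**
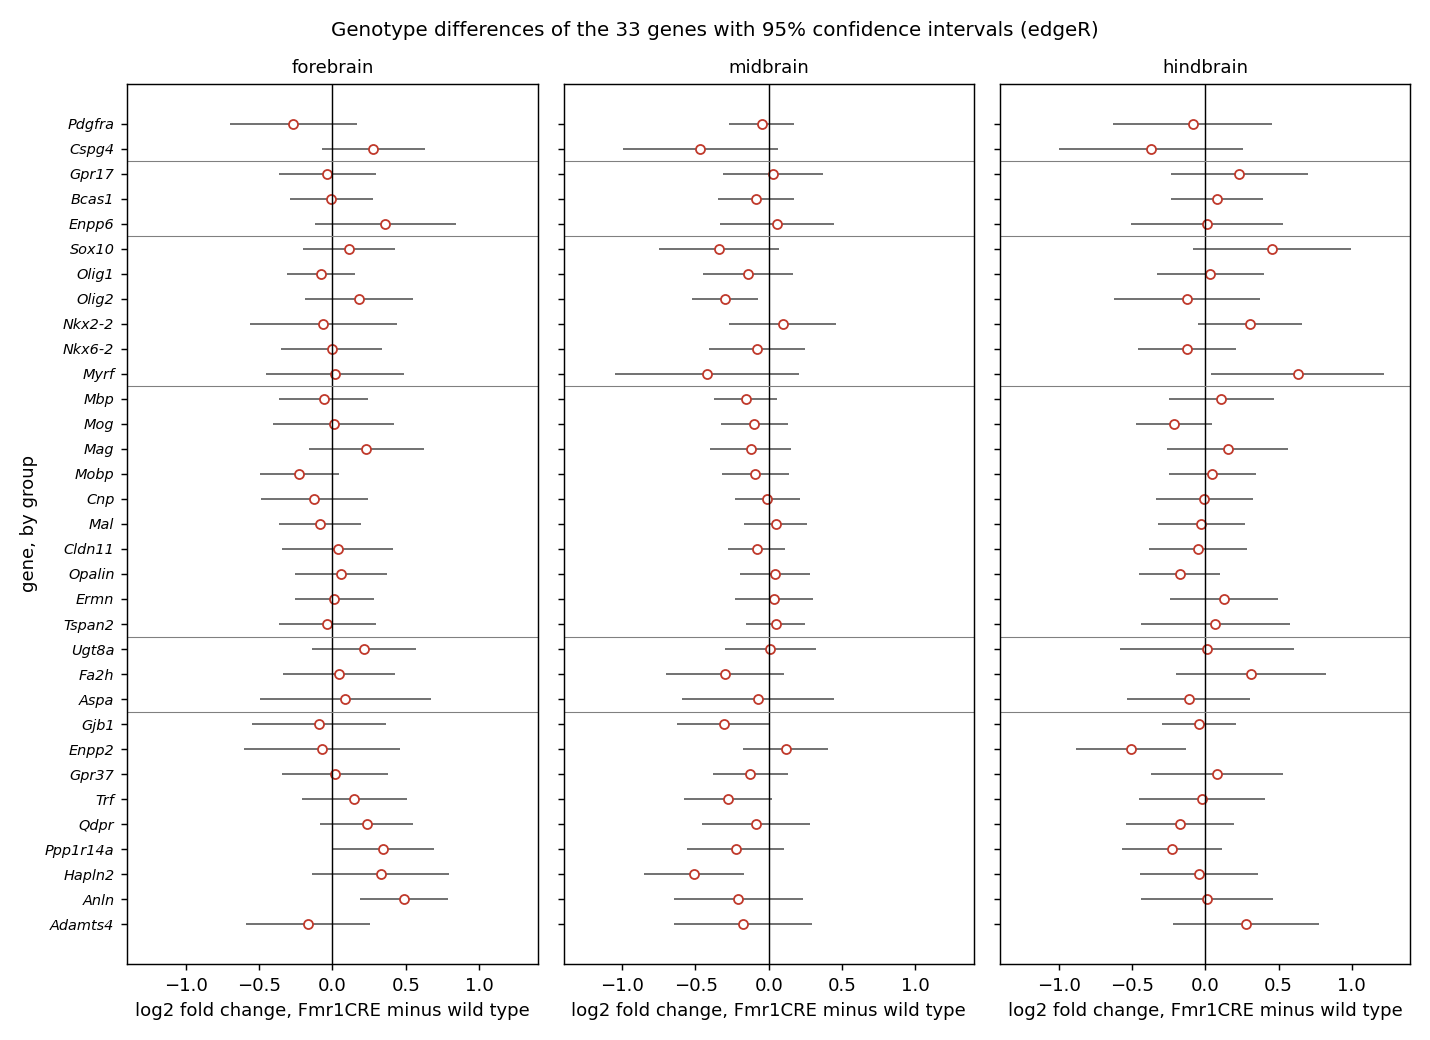
Log2 fold change, Fmr1CRE minus wild type, with 95% confidence interval (edgeR) of each of the 33 genes in forebrain, midbrain and hindbrain, 3 mice against 3. Open points mark adjusted p of 0.05 or more, and the points lie around 0 in each region. In each region 2 genes have intervals that leave 0 out, among them *Anln* (0.49) in forebrain and *Hapln2* (-0.51) in midbrain. In hindbrain they are *Enpp2* (-0.51) and *Myrf* (0.63).

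The smallest p-values belonged to mature-stage genes and to different genes in each region. In forebrain, where the labels of the replicate 3 libraries bear on it, the 3 Fmr1CRE values of *Anln* given above exceeded the 3 wild-type values (log2 0.49, SE 0.13, unadjusted p 0.00568, edgeR adjusted p 0.806, and 0.183 to 1 over the alternatives). Without both replicate 3 forebrains, 2 mice against 2, the difference was 0.51 (SE 0.17, edgeR adjusted p 0.324). For *Hapln2* in midbrain the wild-type values were all above the Fmr1CRE values (-0.51, SE 0.15, p 0.00871, edgeR adjusted p 0.77, and 0.236 to 1 over the alternatives), and in hindbrain its genotypes overlapped (-0.04, SE 0.17). In hindbrain the 3 *Enpp2* values of Fmr1CRE mice were below those of wild type (-0.51, SE 0.16, p 0.0147, edgeR adjusted p 0.875, and 0.246 to 1 over the alternatives). There the log2 fold changes of 9 of the 10 choroid plexus markers were below 0 as well (median of the 10 -0.40), none of them called, with summed levels of 944 to 3311 CPM in wild type and 1411 to 1450 CPM in Fmr1CRE. Wild-type hindbrain 3 held the lowest of these sums, 944 CPM, and measured 926 CPM of *Enpp2*. The part of choroid plexus in the genotype difference was not tested. Summed over regions, *Enpp2* differed by -0.29 (SE 0.12, p 0.0412, edgeR adjusted p 0.998).

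Genotype groups did not overlap for 2 genes in forebrain (*Anln* higher and *Mobp* lower in Fmr1CRE), 2 in midbrain (*Hapln2* and *Olig2* lower), 2 in hindbrain (*Nkx2-2* higher and *Enpp2* lower) and 1 for the sums (*Enpp2* lower), against 10.3%, 11.3%, 10.9% and 8.08% of all genes. The precursor genes gave -0.27 and 0.28 in forebrain, -0.05 and -0.47 in midbrain and -0.08 and -0.37 in hindbrain for *Pdgfra* and *Cspg4*. Of the transcription factors *Myrf* differed most, by -0.42 in midbrain (SE 0.27, adjusted p 0.842) and 0.63 in hindbrain (SE 0.25, adjusted p 0.875), where Fmr1CRE hindbrain 2 held the highest value. The genotype difference of *Hapln2* had the smallest interaction p among the 33 genes (unadjusted p 0.0261, edgeR adjusted p 0.66). Without both replicate 3 forebrains, 0 of the 33 genes were called between genotypes, in hindbrain against forebrain 28 were higher and 2 lower, *Sox10* (adjusted p 0.0503) being lost and *Olig2* (0.0461) added, and in midbrain against forebrain 21 were higher and 0 lower, *Aspa* (adjusted p 0.0777) being lost and *Enpp6* and *Mbp* (0.0284 and 0.0356) added.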

How the data were processed

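RNA from 18 libraries was measured (3 regions of 3 wild-type and 3 Fmr1CRE littermates). Per the labels and the study's methods, the authors quantified reads with Salmon 0.14.0 through the bcbio pipeline (mm10) and deposited gene counts, whole numbers that are not normalized. The authors also deposited estimated counts per transcript with effective lengths from Salmon, which were pooled over libraries here to set gene lengths and the most read transcript. A deposited table of log2 values from DESeq2 1.30.1 held 4 of the 33 genes and was not used.

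Groups came from the labels. Counts were fitted with edgeR 4.0.16 (quasi-likelihood, TMM, filterByExpr) in R 4.3.3, with 1 fit of 6 groups for regions and the interaction, 1 fit per region for genotype, and 1 on counts summed per mouse. Benjamini-Hochberg adjustment ran over all genes tested. A log2 CPM used a prior count of 2. SEs were derived from the log2 fold change and its F. The fits were tested on simulated data. Identifiers without a symbol held 0.0438% of counts. Alternatives comprised DESeq2 1.42.0, other scalings and filters, each genotype alone, each library left out, the mouse as a replicate block and GC offsets. The members and lists were chosen with earlier results of these data known. Values in every library are given for the 2 genes of each group with the largest hindbrain difference from forebrain, the gene with the smallest p in each genotype comparison and, chosen after its values were seen, *Myrf*. Of further lists, the 2 genes with the largest and the 2 with the smallest fold change are named, except for an item that is not reported here. Reads overlapping between genes were not separable here.

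The regions of a mouse pair by animal, as the labels give its number. Correlations of gene deviations between regions of the same mouse ran from -0.17 to 0.178, above 0.1 in 3 of 18 pairs. The lowest was that of hindbrain with forebrain in Fmr1CRE mouse 3, whose midbrain with forebrain gave -0.032. Wild-type mouse 3 gave -0.0205 and -0.0846 for the same pairs of regions. Outside the replicate 3 forebrains only midbrain with forebrain of wild-type mouse 2 was negative (-0.0256). Whether this bears on an exchange of libraries was not tested. The sequencing run used pools of libraries whose members are not named, so no batch could be tested.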

Additional observations from a re-analysis of the deposited data

How the results depend on the processing

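The 33 genes were higher in hindbrain than in forebrain in 26 to 29 cases and lower in 2 to 3 when 1 library was left out, higher in midbrain than in forebrain in 15 to 23 and lower in 0, and higher in hindbrain than in midbrain in 20 to 23 and lower in 3 to 4. Between genotypes and for the interaction the count stayed at 0 in these fits. The calls of 26 of 28, 14 of 20 and 20 of 22 higher genes, and of all lower genes, held in each of them. In wild-type libraries alone 13 genes were higher in midbrain than in forebrain. In Fmr1CRE libraries alone 0 were, while there 1 gene was lower in hindbrain than in forebrain. Both fits set 3 libraries of a region against 3, fewer than the main fit, and the interaction test called 0 genes. The counts were not set beside the share of all genes called in these fits. The 20 genes called in midbrain against forebrain by the main fit kept their direction in Fmr1CRE libraries alone. With the mouse as a replicate block, *Mal* and *Tspan2* were lost in midbrain against forebrain (adjusted p 0.0552 and 0.0654) and *Tspan2* and *Gpr37* in hindbrain against midbrain (0.064 and 0.0699), and the block changed no other call of the 33 genes. The last 2 were also lost without a filter on low counts (0.0628 and 0.057). Same-numbered mice of the 2 genotypes share only a number (correlations -0.12 to 0.0693, 0 of 9 pairs over 0.1).

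Some differences turned direction under an alternative, and the cause was not tested. In wild-type libraries alone, *Myrf* differed by -0.0092 (hindbrain against forebrain), *Pdgfra* by -0.045 (midbrain against forebrain), and *Olig2* and *Fa2h* by -0.028 and -0.043 (hindbrain against midbrain). In Fmr1CRE libraries alone, *Cspg4* and *Enpp2* differed by -0.26 and 0.0023 (midbrain against forebrain) and *Sox10*, *Myrf* and *Adamts4* by 0.34, 0.15 and 0.20 (hindbrain against midbrain). In hindbrain against midbrain *Adamts4* gave 0.012 with total counts as the scaling, *Sox10* and *Adamts4* gave 0.092 and 0.014 with GC offsets, and 0.084 and 0.0056 with GC offsets and the mouse as a block. With 1 library left out, *Enpp2* ran from -0.21 to 0.026 (midbrain against forebrain), and *Olig2* from -0.054 to 0.14 and *Adamts4* from -0.23 to 0.033 (hindbrain against midbrain). Without both replicate 3 forebrains *Enpp2* gave 0.0024 (midbrain against forebrain).

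Over all genes, DESeq2 called 31, 62 and 60 genes between genotypes in forebrain, midbrain and hindbrain, 29 for the sums and 51 for the interaction, where edgeR called 0, 1, 0, 1 and 0; without a filter on low counts edgeR called 0, 11, 11, 4 and 7. None of the 33 genes was among these calls.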
